A study of Mus musculus with 8 samples.

Results

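The IL6 family cytokine and JAK-STAT genes examined here were 10 genes taken by symbol from a count table of 27036 genes: the ligands Il6 and Lif, the receptor genes Il6ra, Osmr and Il6st, the kinase genes Jak1, Jak2 and Jak3, the transcription factor gene Stat3 and the inhibitor gene Socs3. All 10 symbols had a row in the table. The table held bulk RNA-seq of mouse prostate from 8 libraries. There were 3 WT libraries of normal prostate, 3 libraries of prostatic intraepithelial neoplasia (PIN), a premalignant lesion, and 2 libraries of prostatic adenocarcinoma (PCa). PIN and PCa tissue came from R26mTmG/hAR:Osr1Cre/+ mice, in which Osr1-Cre, active in cells of the Osr1 lineage, switched on a floxed transgene (hARtg) together with a membrane GFP reporter, so both lesion groups carried the same alleles. The WT prostates were sex and age matched. The study's results text calls them WT mice, while a figure legend gives R26mTmG/+:Osr1Cre/+ mice as WT and the RNA isolation methods name mice of that genotype, so whether the controls carried Osr1-Cre and the reporter is uncertain. The age of the mice behind each of these libraries was not given in the sources used here, and the lesions were chosen under the microscope for their content of atypical or tumor cells. The labels number the libraries within a group without saying that each came from a separate animal, and p-values then measure the spread between these samples.

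Cytokines of the IL6 family signal through receptors that share Il6st (gp130). IL6 binds IL6RA, oncostatin M binds OSMR, and LIF binds LIFR, each in a complex with gp130. The receptor tails carry JAK kinases, which phosphorylate STAT3. Phosphorylated STAT3 enters the nucleus and induces target genes, among them Socs3, whose protein binds gp130 and the kinases and shuts the signal down, so that Socs3 mRNA is widely read as a record of recent signaling. In the prostate this pathway is known from inflammation and from advanced cancer, where STAT3 acts in epithelial, stromal and immune cells alike. The activity of JAK and STAT3 proteins lies in their phosphorylation, which mRNA counts do not measure.

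Of the 10 genes, 9 passed the filter on low counts (over 1 CPM, the count scaled to the size of its library, in at least 2 libraries). None was called in any comparison, beside 0% of all tested genes for PIN against WT, 8.54% for PCa against WT and 5.72% for PCa against PIN, where a call needed an adjusted p below 0.05 and a log2 fold change beyond 1 in either direction (edgeR quasi-likelihood test, Benjamini-Hochberg adjustment over 14034 genes). Jak2 and Socs3 had the lowest p-values of the members in PCa against WT. Both PCa libraries lay above all WT libraries for these genes, as they did for 17.7% of all genes. The fitted folds were 2.20 for Jak2 and 5.31 for Socs3, and both genes missed the adjusted threshold. Lif and Osmr took opposite directions in the 2 tumors, above the WT range in PCa 1 and below it in PCa 2. In PIN no member differed from WT at an unadjusted p below 0.05 (3.51% of all genes).

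Library totals ran from 21751803 counts in WT 1 to 29730420 in WT 3. The members' values depended on PCa 1, PCa 2 and WT 2. PCa 1 and PCa 2 had a Spearman correlation of 0.839 across genes, below the ranges of 0.923 to 0.961 among WT and 0.964 to 0.983 among PIN libraries. WT 2 was the exception among the WT libraries, with summed luminal keratin and Epcam levels of 6412 CPM against 1743 and 1639 in the other WT libraries. Markers of the cell types in the tissue also moved. The summed level of 5 smooth muscle markers was 1911 to 4620 CPM in WT and 41.2 and 17.9 CPM in the PCa libraries, and 4 prostate secretory markers summed to 8864 to 26262 CPM in WT against 394 (PCa 1) and 802 (PCa 2). The 14 leukocyte markers summed to 82.9 to 269 CPM in WT and 209 to 326 CPM in PIN. PCa 1 held 1142 CPM of them and PCa 2 held 272, and 13 of the 14 lay above every WT library in PCa 1 against 3 in PCa 2. A single gene, Cd52, made up 228 CPM of the sum in PCa 2. There 6 of the 11 tested leukocyte markers lay below every WT library and 2 above, beside 36% and 31.9% of all genes. The 4 basal markers summed to 167 to 216 CPM over the WT libraries, 604 for PCa 1 and 27.4 for PCa 2. The part of these differences in the members' values was not tested, and in bulk tissue fewer cells of a type and less RNA per cell cannot be told apart. The library numbers in the labels form separate series for WT 1, for WT 2 and 3, and for the PIN and PCa libraries, so if they mark batches these cannot be told apart from lesion against WT. Transgenic hARtg has no row of its own in the count table. Osr1, whose promoter drives the Cre, read 1.72 to 4.15 CPM in WT and 0.74 and 0.55 CPM in the tumors (adjusted p = 0.0513). Pbsn, an androgen-dependent secretory gene of the normal prostate, fell in PCa against WT by 8.70 on the log2 scale (adjusted p = 0.0123).

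Ligands came first. Il6 (chr5:30339701-30346508, plus strand, mm9), the founding cytokine of the family, was at the bottom of detection. A single count was found in WT 2, PIN 2 and PCa 2, and 0 counts in the other 5 libraries, where a count of 0 allows up to 3 counts. No fold change was formed for it. Its transcript was not detectable in most libraries at this depth, which does not show that it was absent.

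Lif (chr11:4157560-4172517, plus strand, mm9) encodes leukemia inhibitory factor, which acts through LIFR and gp130. It read 0.79, 0.59 and 1.43 CPM in WT 1 to 3 and 1.48, 0.93 and 0.79 CPM in PIN 1 to 3. In PCa 1 it read 6.05 CPM, from 188 counts, and in PCa 2 it read 0.21 CPM, from 6 counts. The WT and PIN ranges overlapped, PCa 1 was above all other libraries and PCa 2 below them, a ratio of 29.4 between the tumors. The fitted log2 fold change of PCa against WT was 1.73 ± 1.10 (SE), with an adjusted p of 0.351. Without PCa 2 the estimate was 2.69, and without PCa 1 it was -2.16.

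The only searched motif found upstream of Lif was an AP-1 site (letters TGANTCA, both strands searched), the element bound by FOS and JUN proteins. It is shown because Lif is one of the members highest in PCa 1. The other windows with a match to a searched motif are those of Il6, also AP-1, and Socs3, which carries the STAT element (letters TTCNNNGAA, a palindrome) to which phosphorylated STAT dimers bind. RefSeq promoter sequences (table build GRCm38.p6) were found for all 10 members, and the 250 bases before each annotated start were searched. Each window had a single exact match in mm9, from which the coordinates below are taken. Capitals mark the motif, written 5′ to 3′ on the gene's strand.
Il6 (chr5:30339404-30339421, plus strand): cTGAGTCActtttaaaga
Lif (chr11:4157333-4157359, plus strand): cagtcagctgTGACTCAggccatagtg
Socs3 (chr11:117830816-117830844, minus strand): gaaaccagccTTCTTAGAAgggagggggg
The motif begins 249 bases before the RefSeq start of Il6, 228 before that of Lif and 154 before that of Socs3. These RefSeq starts differ from the starts of the gene spans printed in this text. The Il6 and Lif stretches lie outside annotated genes in GENCODE vM1 on mm9. The Socs3 stretch lies within the span annotated for Socs3, whose longest transcript begins further upstream, and in none of its exons. Of all 32851 upstream windows of this length, 7.02% hold the STAT element and 6.75% the AP-1 site, against 1 and 2 of the 10 member windows. A match is a description of letters and does not show binding.

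Receptors differed from one another in where they were high. Il6ra (chr3:89673246-89717084, minus strand, mm9), the subunit that binds IL6, read 18.79, 72.77 and 16.29 CPM in WT 1 to 3. PIN libraries held 26.24, 20.04 and 17.89 CPM, and the tumors 27.10 CPM (PCa 1) and 92.78 CPM (PCa 2). The high libraries were WT 2 and PCa 2, and the groups WT and PCa overlapped. The log2 fold change of PCa against WT was 0.74 ± 0.73 (adjusted p = 0.557). Against PIN, both PCa libraries were above all 3 PIN libraries, at 1.49 ± 0.73 (adjusted p = 0.273).

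Il6st (chr13:113265216-113297068, plus strand, mm9), the shared subunit gp130, had the narrowest spread between tumors. It read 139.81, 77.49 and 128.98 CPM in WT, 161.44, 128.43 and 133.39 CPM in PIN, and 106.52 and 105.26 CPM in PCa. The tumors differed from each other by a ratio of 1.01 and lay inside the WT range, whose lowest value was WT 2. The log2 fold change of PCa against WT was -0.12 with a 95% confidence interval from -0.76 to 0.52, which is 0.589 to 1.43 times the WT level. Both PCa libraries were below every PIN library (-0.41 ± 0.28, adjusted p = 0.419).

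Osmr (chr15:6763577-6824969, minus strand, mm9), which pairs with gp130 to bind oncostatin M, read 11.52, 18.99 and 12.37 CPM in WT and 25.27, 23.73 and 12.69 CPM in PIN. PCa 1 read 34.79 CPM from 1081 counts and PCa 2 read 2.23 CPM from 65 counts. PCa 1 was the highest of all libraries and PCa 2 the lowest, at a ratio of 15.6 between them. Fitted over both tumors, the log2 fold change against WT was 0.37 ± 0.89 (adjusted p = 0.821). That mean stood for neither tumor. Without PCa 1 the log2 fold change was -2.67 against WT and -3.19 against PIN, and without PCa 2 it was 1.30 against WT. With a lone tumor in the group, the spread between tumors was not measured. Summed markers of 5 cell types were also higher in PCa 1 than in PCa 2: fibroblasts (744 against 282 CPM, beside 521 to 1025 in WT), luminal epithelium (3874 against 1417), and the basal, smooth muscle and leukocyte sums given above. The endothelial sum was nearly equal (90.2 and 89.8 CPM), and the prostate secretory sum was lower in PCa 1 (394 against 802 CPM). The part of these cell types in the Osmr difference was not tested.

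Lifr, the receptor of LIF and not one of the 10 genes, rose in PCa. It read 32.9, 17.7 and 24.6 CPM in WT, 36.2, 38.4 and 26.5 CPM in PIN, and 81.2 and 73.4 CPM in PCa. Its log2 fold change against WT was 1.62 ± 0.29 (adjusted p = 0.0205). The call was lost in the model of the PCa and WT libraries alone (adjusted p = 0.0925) and without WT 3 (0.0758). It was also lost with the replicate number as a block in the model. Against PIN the change was 1.20 ± 0.29 (adjusted p = 0.0562). On a scale per length (TPM, counts scaled to exon length and library size), the ratio of Osmr to Lifr was 0.298, 0.914 and 0.428 in WT, 0.408 to 0.595 in PIN, 0.366 in PCa 1 and 0.0259 in PCa 2. The level ratio of Il6ra to Il6st, also in TPM, was 0.396 in PCa 1 and 1.37 in PCa 2, against 0.209, 1.46 and 0.197 in WT 1 to 3 and 0.209 to 0.253 in PIN. PCa 2 and WT 2 were alike in holding more Il6ra than Il6st transcript.

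**Figure D1:**
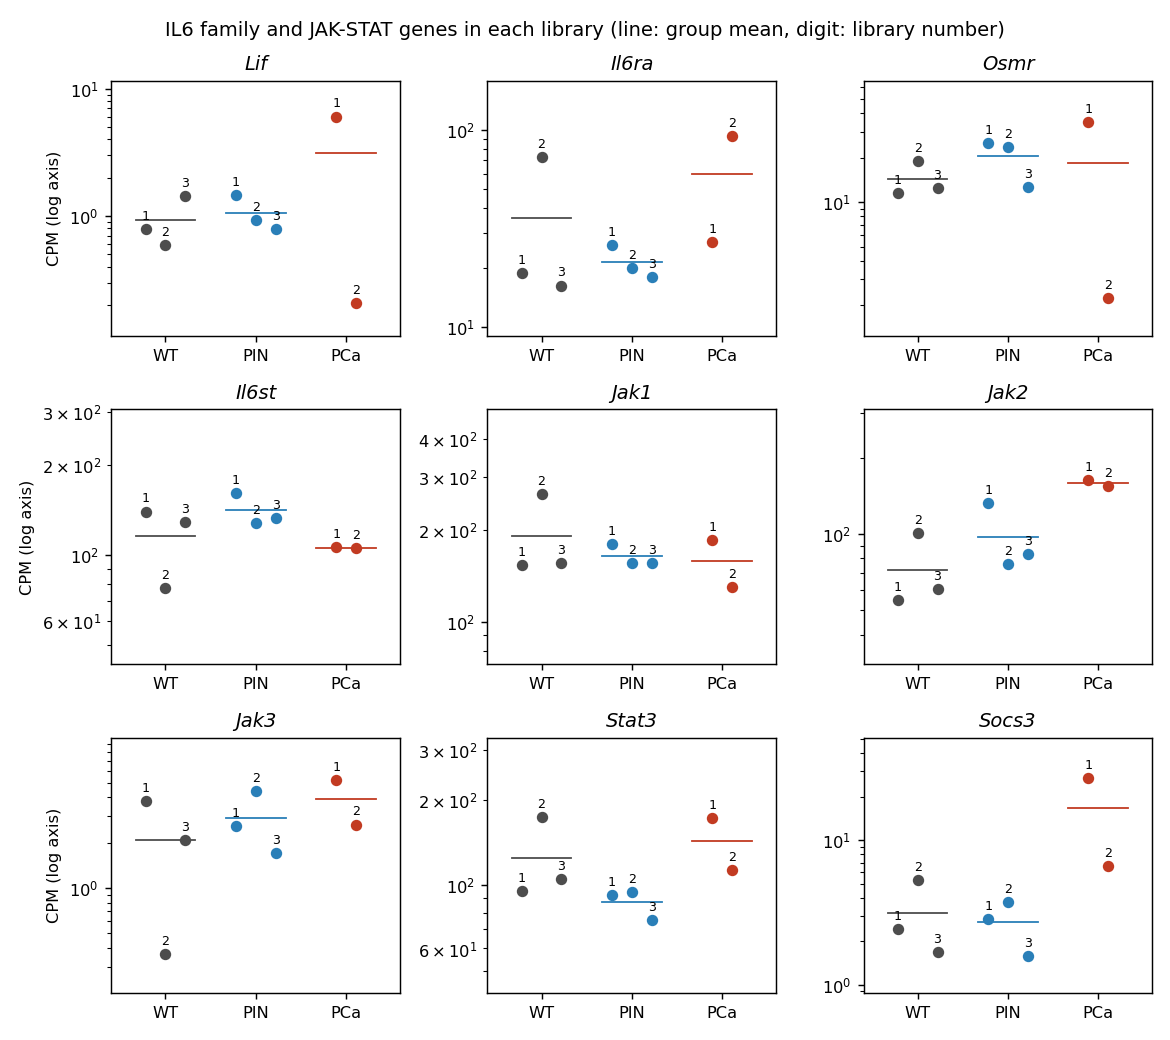
Levels of the 9 tested members in each library, in CPM on a log axis, for WT (3 libraries), PIN (3) and PCa (2). Points are libraries with their numbers and lines are group means: the 2 PCa points nearly coincide for Jak2 and Il6st, and lie on opposite sides of all WT points for Lif and Osmr.

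Among the kinases, Jak2 had the highest fitted fold over WT in PCa. Jak2 (chr19:29326318-29387570, plus strand, mm9) serves gp130 and also the growth hormone, prolactin and erythropoietin receptors. Its level was 54.97, 101.00 and 60.65 CPM in WT, 132.32, 76.32 and 83.40 CPM in PIN, and 163.06 and 154.88 CPM in PCa. Both tumors were above every WT and every PIN library, and the tumors differed by a ratio of 1.05. The fold of PCa over WT was 2.20 with a 95% confidence interval of 1.28 to 3.78 (log2 1.14 ± 0.34, unadjusted p = 0.0102, adjusted p = 0.0755). DESeq2 called it (adjusted p = 0.0199), as did edgeR without WT 2, the highest WT library (1.46, adjusted p = 0.0391). Over all alternatives its adjusted p ran from 0.0199 to 0.203. Against PIN the log2 fold change was 0.71 ± 0.34 (adjusted p = 0.261).

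Jak1 (chr4:100824972-100937887, minus strand, mm9), the kinase that gp130 signaling depends on most, read 154.00, 262.73 and 156.00 CPM in WT and 180.23, 156.05 and 155.54 CPM in PIN. In PCa it read 185.52 and 130.05 CPM. Apart from a high WT 2 and a low PCa 2 the libraries lay close together. PCa against WT came to -0.27 ± 0.30 on the log2 scale (adjusted p = 0.601). The 95% confidence interval ran from -0.98 to 0.43. The end of the gene overlaps Raver2.

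Jak3 (chr8:74200195-74214474, plus strand, mm9), which pairs with the common gamma chain of lymphocyte cytokine receptors rather than with gp130, was scarce. It read 3.76, 0.36 and 2.09 CPM in WT, 2.59, 4.41 and 1.70 CPM in PIN, and 5.21 and 2.64 CPM in PCa. The groups overlapped, with PCa 1 the highest library and WT 2 the lowest. Between PCa and WT the log2 difference was 0.92 ± 0.87 (adjusted p = 0.536). Jak3 overlaps Insl3 and Gm9933 in the annotation. The strand setting of the counting was not given in the sources used here, so the counts may be shared with, or lost to, those genes.

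The JAK kinases changed places in their order of abundance. Of the summed TPM of Jak1, Jak2, Jak3 and Tyk2, Jak2 held 25.5, 32.4 and 29.0% in WT, 44.4, 34.0 and 36.2% in PIN, and 50.2 and 54.7% in PCa. Every PIN library was above every WT library and every PCa library above every PIN library in this share, which is a description with no test. The ratio of Jak2 to Jak1 was 0.513 to 0.559 in WT, 0.703 to 1.05 in PIN, and 1.26 and 1.71 in PCa 1 and PCa 2. A ratio within a library says that the genes changed unequally and does not say which of them changed.

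**Figure D2:**
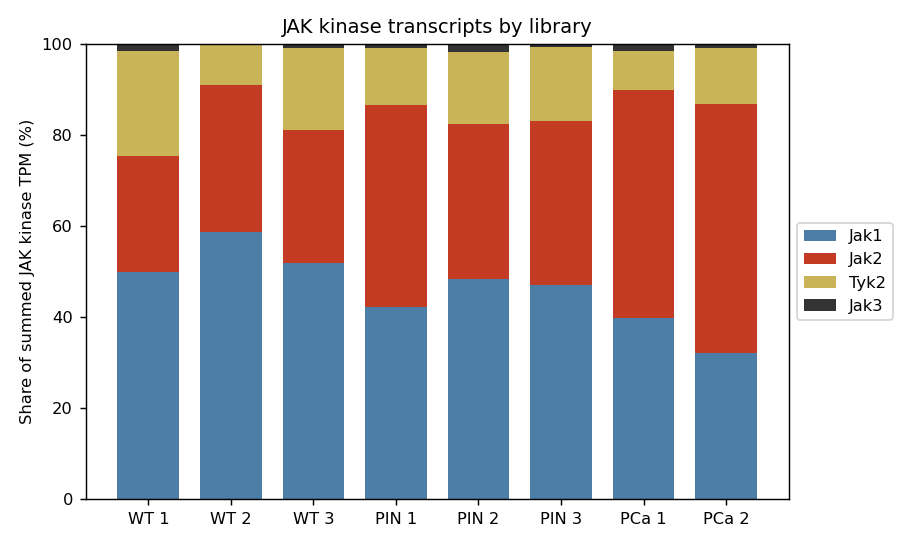
Share of each JAK kinase gene in the summed TPM of Jak1, Jak2, Jak3 and Tyk2, in percent, with 1 bar per library. The Jak2 share runs from 25.5 to 32.4% in the WT libraries and is 50.2 and 54.7% in the PCa libraries.

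Stat3 (chr11:100746412-100800854, minus strand, mm9) showed a different order. It read 95.81, 173.41 and 105.52 CPM in WT, 92.58, 94.68 and 75.38 CPM in PIN, and 172.58 and 112.87 CPM in PCa. All PIN libraries lay below all WT libraries in CPM, narrowly, and both PCa libraries lay above all PIN libraries. Its fitted log2 differences were -0.51 ± 0.28 for PIN against WT (adjusted p = 1), 0.19 ± 0.31 for PCa against WT (adjusted p = 0.736) and 0.71 ± 0.31 for PCa against PIN (adjusted p = 0.231). Stat3 overlaps Stat5a at its end in the annotation. The 3 genes whose log2 CPM followed Stat3 most closely over the 8 libraries were Mllt4 (Pearson's r = 0.960), Zbtb43 (0.957) and Cbfb (0.947). These correlations were picked from all tested genes and describe libraries that share the same high WT 2 and PCa 1.

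Socs3 (chr11:117827393-117831361, minus strand, mm9), the feedback inhibitor whose STAT element is printed above, had the highest fitted fold of the members. It read 2.42, 5.30 and 1.68 CPM in WT and 2.84, 3.75 and 1.58 CPM in PIN. PCa 1 read 26.74 CPM from 831 counts and PCa 2 read 6.58 CPM from 192 counts. WT and PIN overlapped, while both tumors lay above all 6 of those libraries, PCa 1 by a wide margin and PCa 2 just above WT 2.

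The fold of Socs3 in PCa over WT was 5.31 with a 95% confidence interval of 1.65 to 17.1 (log2 2.41 ± 0.73, unadjusted p = 0.0113, adjusted p = 0.0801). Against PIN the log2 fold change was 2.61 ± 0.73 (unadjusted p = 0.00774, adjusted p = 0.0804). DESeq2 called both (adjusted p = 0.0109 and 0.00619). Without PCa 2 the estimates were 3.11 against WT and 3.31 against PIN, and without PCa 1 the estimate against WT was 1.08. Over all alternatives the adjusted p ran from 0.0109 to 0.340 against WT and from 0.00619 to 0.273 against PIN. The level of Socs3 relative to Stat3, in TPM, was 0.0526 to 0.101 in WT, 0.0692 to 0.131 in PIN, 0.511 in PCa 1 and 0.192 in PCa 2. The genes whose log2 CPM followed Socs3 most closely over the 8 libraries were Cept1 (r = 0.978), Fbxo34 (0.975) and Hsf2bp (0.972), again picked from all tested genes.

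**Figure D3:**
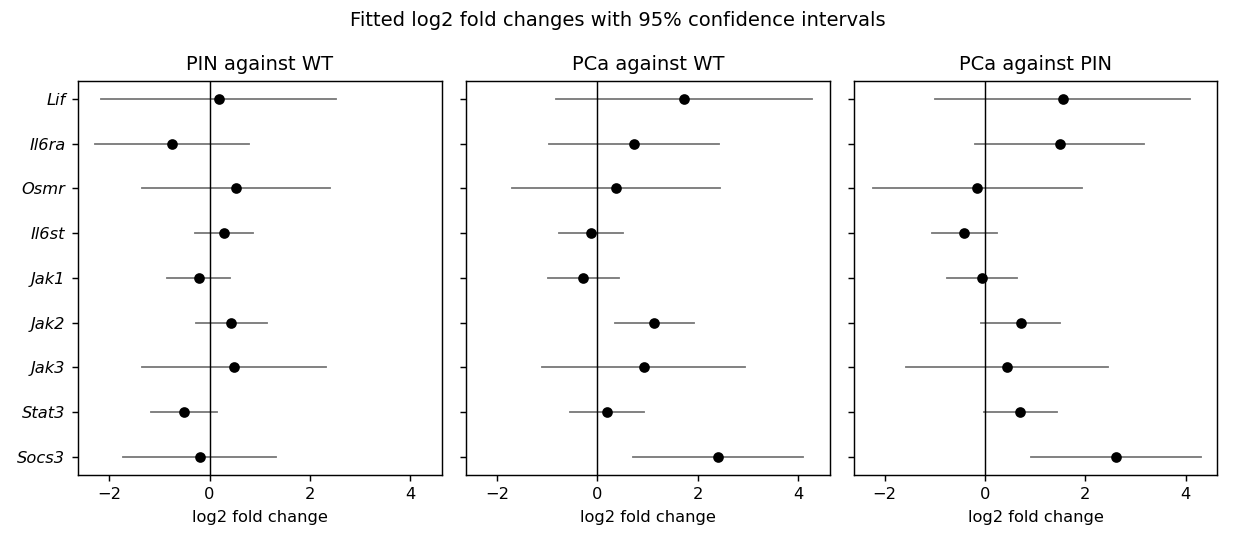
Fitted log2 fold changes of the 9 tested members in the 3 comparisons, with 95% confidence intervals as lines and 0 as the vertical line. For PCa against WT the intervals of Jak2 and Socs3 lie above 0, for PCa against PIN that of Socs3 does, and no member passed the adjusted threshold.

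The order of the members by level per length (mean TPM) also differed between groups. In WT it was Jak1 (77.2), Il6st (68.8), Jak2 (41.9), Stat3 (38.3), Il6ra (29.6), Osmr (3.46), Socs3 (3.07), Jak3 (1.24), Lif (0.676) and Il6 (0.0347). Among neighbours in that order the ranges over libraries were separate for Il6ra over Osmr and for Lif over Il6, and all other neighbours overlapped. In PIN, Il6st (92.1) led Jak1 (77.1), with overlap, and Jak2 (65.9) was separate from Stat3 (31.3) below it. In PCa, Jak2 came first at 122.9 TPM, separate from Jak1 at 84.6, and Socs3 stood at 22.2 TPM, below and separate from Stat3 at 58.0 and above Osmr (5.84) with overlap.

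The comparison of PIN with WT asks what accompanies the premalignant lesion. Here 0 of 9 tested members were called, against 0% of all tested genes, and 0 of 9 had an unadjusted p below 0.05, against 3.51% of all genes. DESeq2 also called 0 members, with 39 genes (0.278%) called in all. The adjusted p was 1 for every member with edgeR. Stat3, below WT in all PIN libraries, was the single member whose groups did not overlap, against 12.9% of all genes (6.48% above and 6.38% below). This holds for CPM by a narrow margin, and in TPM the Stat3 ranges of PIN and WT overlapped. The median log2 fold change of the members was 0.18, beside -0.02 over all tested genes.

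Against WT, the tumors had 0 of 9 members called, beside 8.54% of all tested genes (1198 genes), with 2 called by DESeq2, which called 17.7% of all genes, and 2 of 9 (Jak2 and Socs3) with an unadjusted p below 0.05, beside 27.5%. The same 2 members did not overlap with WT, and both were above it, beside 17.7% of all genes above, 19.6% below and 37.3% without overlap in all. The median log2 fold change was 0.74, beside 0.01 over all genes. For PCa against PIN, 0 of 9 were called, beside 5.72% (803 genes), with 1 called by DESeq2, which called 14.1% of all genes, and Socs3 alone had an unadjusted p below 0.05, beside 22.8%. In that comparison Il6ra, Jak2, Stat3 and Socs3 were above all PIN libraries and Il6st below them, which is 5 of 9 without overlap, beside 44.3% of all genes (21.1% above and 23.2% below). The PCa comparisons share the same 2 tumors.

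The tumors were then read one at a time, as the log2 difference of each PCa library from the WT mean, given as a description with no test. In PCa 1 the differences were 3.22 for Socs3, 2.68 for Lif, 1.78 for Jak3, 1.32 for Osmr, 1.23 for Jak2 and 0.52 for Stat3. Jak1 (0.01), Il6ra (-0.05) and Il6st (-0.07) were at the WT mean. In PCa 2 they were 1.72 for Il6ra, 1.21 for Socs3, 1.15 for Jak2 and 0.82 for Jak3, near 0 for Il6st (-0.09) and Stat3 (-0.10), and negative for Jak1 (-0.51), Lif (-1.76) and Osmr (-2.60).

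PCa 1 was above every WT library for 5 of 9 members (32.9% of all genes) and below for 0 (32.3%). PCa 2 was above for 3 (31.9%) and below for 3 (36%). The members' median difference was 1.23 in PCa 1 and -0.09 in PCa 2. For 2 of 9 members, 22.2%, the tumors lay on opposite sides of all WT libraries, beside 12.2% of all genes, and 3 of 9 (Lif, Osmr and Socs3) differed between the tumors by over 2 on the log2 scale, beside 18.5% of all genes.

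**Figure D4:**
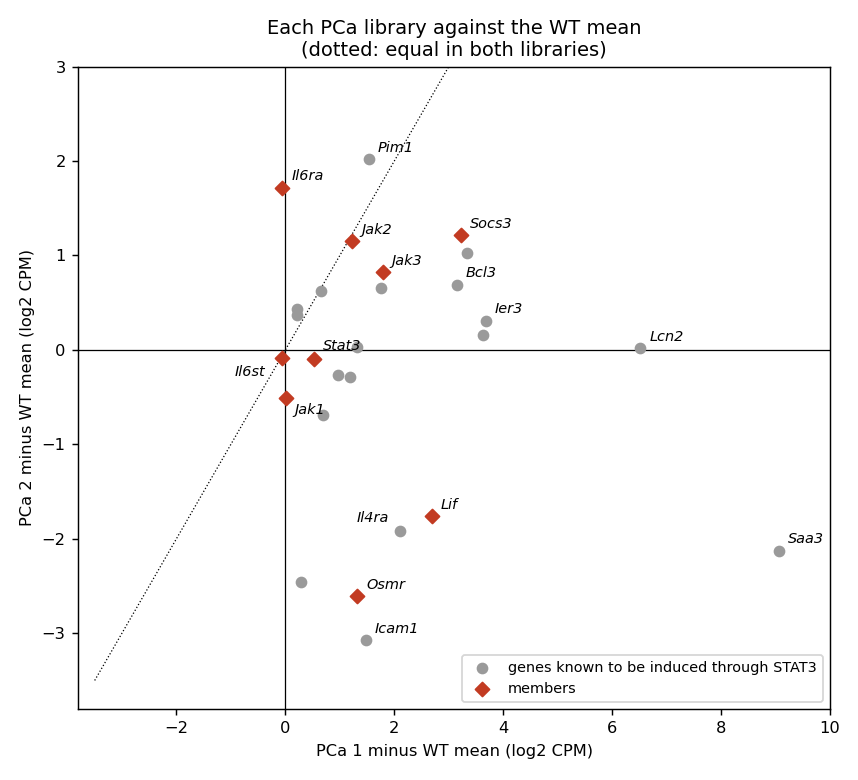
Log2 CPM of PCa 1 (x axis) and PCa 2 (y axis) as differences from the WT mean, for the 9 tested members (diamonds) and 18 tested genes known to be induced through STAT3 (circles), with the dotted line where both are equal. Jak2 lies on the line, Osmr and Lif lie in the lower right quadrant, and Lcn2 and Saa3 lie far to the right.

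The other genes of the pathway were grouped into 5 lists by role, 54 genes in all, of which 46 were tested. In PIN against WT none was called (0% of all genes), and the median log2 fold change was -0.02, that of all genes being -0.02. In PCa against WT, 1 rose (Lifr) and 1 fell (Il11ra1), beside 4.35% of all genes higher and 4.18% lower, and the median was 0.25 beside 0.01. In PCa against PIN, 1 rose (Pim1) and 1 fell (Il11ra1), beside 2.55% and 3.17%, with a median of 0.34 beside 0.07. DESeq2 called 8 of the 46 against WT, beside 17.7% of all genes, and 9 against PIN, beside 14.1%. An unadjusted p below 0.05 was reached by 12 of the 46 against WT and 15 against PIN, beside 27.5% and 22.8% of all genes.

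Of the other ligands, 3 of 8 were tested and none was called, with 0 of them at an unadjusted p below 0.05 in PCa against WT, beside 8.54% of all genes called and 27.5% at that p. Osm, oncostatin M, the ligand of Osmr, did not pass the filter, since it exceeded the minimum in a single library, with 97 counts (3.12 CPM) in PCa 1 against 0 to 4 counts in every other library. Oncostatin M is made mainly by leukocytes, and the leukocyte marker sum was also highest in PCa 1; the part of leukocytes in the Osm counts was not tested. Among those tested in PCa against WT, Ctf1, cardiotrophin 1, had the lowest log2 fold change (-1.50 ± 0.71, adjusted p = 0.217). Ctf1 read 5.71 to 9.29 CPM over the WT libraries, with 0.708 CPM for PCa 1 and 4.56 CPM for PCa 2. In PIN, Clcf1, cardiotrophin-like cytokine, was highest at -0.25.

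Of the 4 other receptors, all were tested. Lifr rose in PCa, as given above. Il11ra1, the receptor of interleukin 11, fell. It read 28.3, 23.6 and 23.1 CPM in WT, 22.6, 27.2 and 26.4 CPM in PIN, and 11.9 and 6.82 CPM in PCa, so the tumors lay below all other libraries. Its log2 fold changes were -1.41 ± 0.30 against WT (adjusted p = 0.0302) and -1.44 ± 0.30 against PIN (adjusted p = 0.0364). The smooth muscle marker sum was lower in the same 2 libraries, and its part in Il11ra1 was not tested. Leaving out any of WT 1, WT 3, the 3 PIN libraries or PCa 2 ended the call of Il11ra1 in both comparisons, with adjusted p from 0.0573 to 0.0799 against WT and from 0.0555 to 0.138 against PIN. It also ended in the models of only the groups compared (adjusted p = 0.141 against WT and 0.0810 against PIN). The replicate number as a block in the model ended it in both comparisons, and upper-quartile scaling ended it against PIN. Cntfr, the ciliary neurotrophic factor receptor, read 157 counts in PCa 1 and 2 in PCa 2. In PIN the receptors ran from 0.02 for Il11ra1 to 0.43 for Lifr.

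Of 7 other kinases and STATs, 6 were tested and none was called in any comparison or reached an unadjusted p below 0.05. Of all genes, 3.51% reached that p and 0% were called between PIN and WT, 27.5% and 8.54% between the tumors and WT, and 22.8% and 5.72% between the tumors and PIN. In PCa against WT, Tyk2, the fourth JAK kinase, was lowest (-0.28 ± 0.27, adjusted p = 0.545). In PIN, Stat2 was highest at 0.71 and Stat6 lowest at -0.24. In PCa against PIN, Stat2 was lowest (-0.55, adjusted p = 0.544).

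All 15 other inhibitors and phosphatases were tested and none was called, with an unadjusted p below 0.05 for 3 of the 15 when the tumors were set against WT and 1 when set against PIN, beside 27.5% and 22.8% of all genes. In PCa against WT, Cish, a SOCS family gene induced by STAT5, was highest (1.30 ± 0.58, adjusted p = 0.195) and Pias2, a SUMO ligase of the PIAS family, lowest (-0.78 ± 0.27, adjusted p = 0.111). Socs2, which restrains growth hormone signaling, resembled Osmr in its order between tumors, 2168 counts in PCa 1 and 157 in PCa 2. In PIN the list ran from -0.24 (Pias4) to 0.37 (Pias1). In PCa against PIN, Cish was highest (1.16, adjusted p = 0.283) and Socs5 lowest (-0.72, adjusted p = 0.283).

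The list of genes known to be induced through STAT3 held 20 genes, 18 of them tested. None was called in PCa against WT. The sign of the log2 fold change was positive for 17 of 18, beside 7107 of 14034 over all genes. Its median was 0.69 on the log2 scale beside 0.01 over all genes, and 7 had an unadjusted p below 0.05, beside 27.5% of all genes. Saa3, an acute-phase serum amyloid gene, was highest (8.13 ± 2.42, adjusted p = 0.0774) and Tgm2, a transglutaminase gene, lowest (-0.70 ± 0.78, adjusted p = 0.610). Saa3 was carried by a single tumor: 5426 counts in PCa 1, 0 in PCa 2, and 3 to 14 in WT. Lcn2, lipocalin 2, an antibacterial protein of epithelium and neutrophils, was likewise 27434 counts in PCa 1 and 282 in PCa 2, where WT held 150 to 288. In PCa 1, 13 of the 18 were above every WT library, beside 32.9% of all genes, with a median difference of 1.50. In PCa 2, 5 were above and 5 below, beside 31.9% and 36% of all genes, with a median of 0.10. Many of these genes are induced by other pathways and expressed by leukocytes as well. Of the 11 tested leukocyte markers, 10 lay above every WT library in PCa 1, and 2 above and 6 below in PCa 2, and their part in the list's values was not tested.

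Pim1, a kinase gene induced by STAT3 and STAT5, was the gene of that list called against PIN. It read 5.78, 6.89 and 3.04 CPM in WT, 3.85, 4.24 and 2.45 CPM in PIN, and 14.4 and 20.4 CPM in PCa. Both tumors were above all other libraries, PCa 2 more so than PCa 1. Against PIN it rose by 2.31 ± 0.44 on the log2 scale (adjusted p = 0.0311), and against WT it missed the threshold narrowly (1.73 ± 0.44, adjusted p = 0.0505). With the replicate number as a block in the model, Pim1 was not called against PIN. The call against PIN was lost without WT 1, any PIN library or PCa 2 (adjusted p from 0.0512 to 0.126). In PCa against PIN the median of the list was 1.30, beside 0.07 over all genes, and Tgm2 was lowest (-1.23, adjusted p = 0.404). Of the 18 genes, 16 had a positive log2 fold change there, beside 7615 of 14034 over all genes. An unadjusted p below 0.05 was reached by 11, beside 22.8% of all genes. In PIN against WT the list had a median of -0.27, from Hp (-2.55, adjusted p = 1) to Lcn2 (1.69, adjusted p = 1).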

How the data were processed

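RNA was depleted of ribosomal RNA and sequenced as paired ends. Per the labels and methods, the authors trimmed reads with cutadapt 1.9.1, aligned them to mm9 with HISAT2 2.1.0 and made the deposited read counts per gene with HTSeq 0.6.1. The deposited table also gives exon length, from which TPM was computed. Counts carried no normalization. Here genes above 1 CPM in at least 2 libraries were kept, TMM-scaled, and fitted with edgeR 4.0.16 (R 4.3.3, quasi-likelihood, 1 model of the 3 groups, 5 residual degrees of freedom). DESeq2 1.42.0, limma 3.58.1, other filters, normalization, models and leaving out each library were alternatives. The pipeline was tested on simulated data. Log2 CPM used a prior count of 2. Members and lists were chosen with earlier results of these data known. The text names all members, the genes of each list that were called or else its highest and lowest, the 3 genes most correlated with Stat3 and Socs3, and Osr1 and Pbsn. Some genes this rule names are not reported here. Osm, Lcn2, Cntfr, Cd52 and Socs2 were named after their values were seen. Cebpd was not analysed here.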

Additional observations from a re-analysis of the deposited data

How the results depend on the processing

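No alternative called a member in PIN against WT, where DESeq2 called 39 genes in all. In PCa against WT, members called were 2 with DESeq2 (Jak2 and Socs3), and edgeR called Jak2 without WT 2. In PCa against PIN, DESeq2 called Socs3, and leaving out a WT or PIN library gave no call of a member. Jak2 and Socs3 were above 0 against WT in all settings, from 0.98 to 1.46 and from 1.08 to 3.11. On leaving out a PCa library, the lone tumor was assumed to vary like the other groups, so member calls from those fits are not given.

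For all genes, PCa against WT gave 2487 calls with DESeq2, 130 with only those groups in the model, 413 with the replicate block, and 347 to 2477 on leaving out a library (most without PCa 1). PCa against PIN gave 1984, 388 and 151, and 78 to 2251. For the pathway lists, PCa against WT gave 8 calls with DESeq2, 0 with those groups alone, 0 with the block and 0 to 8 on leaving out a library. PCa against PIN gave 9, 1 and 0, 1 with upper-quartile scaling, and 0 to 7. The block thus ended the calls of Lifr (adjusted p = 0.0659) and Il11ra1 (0.0869) against WT and of Il11ra1 (0.102) and Pim1 (0.0679) against PIN, and upper-quartile scaling that of Il11ra1 against PIN (0.0530). What causes these shifts was not tested.

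Osmr in PCa against WT turned to -0.64 with limma-trend and -0.36 with the replicate block. On leaving out a library, estimates crossed 0 in PIN against WT for Il6ra (-1.10 to 0.29), Lif (-0.13 to 0.62), Jak1 (-0.35 to 0.081), Jak3 (-0.0087 to 1.23) and Socs3 (-0.50 to 0.41). In PCa against WT this held for Il6ra (-0.39 to 1.77), Il6st (-0.34 to 0.039), Osmr (-2.67 to 1.30), Lif (-2.16 to 2.69), Jak1 (-0.54 to 0.026) and Stat3 (-0.13 to 0.50), and in PCa against PIN for Osmr (-3.19 to 0.78), Lif (-2.33 to 2.52), Jak1 (-0.32 to 0.20) and Jak3 (-0.12 to 0.87). The labels do not say whether replicate numbers pair the samples. Residuals of libraries sharing a number had a mean correlation of 0.0992, and of those not sharing one -0.0505. Not every library correlated best with its own number. The residuals of the 2 PCa libraries mirror each other, so these correlations cannot settle whether the samples were paired. With 2 tumors and 5 residual degrees of freedom the intervals stay wide, and counting error is large for Lif, Jak3 and Il6.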
